A study of Mus musculus with 5 samples.

Results

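The dendritic cell subset genes described here are 10 genes that mark the main kinds of dendritic cell in mice, chosen by name as *Xcr1*, *Clec9a*, *Batf3*, *Irf8*, *Siglech*, *Cd209a*, *Clec10a*, *Flt3*, *Zbtb46* and *Itgax*. All 10 were found among the 54113 named entries of the count table, and all 10 passed the filter on low counts that left 16133 genes. RNA-seq was performed on tissue labelled as tumour, from C57BL/6 mice implanted with MC38, a mouse colon adenocarcinoma line. The mice spent 2 weeks at 30 °C, which is thermoneutral for mice, or at 4 °C. The groups hold 3 libraries at 30 °C (replicates 1, 2 and 3) and 2 libraries at 4 °C (replicates 1 and 2), and no transgene, deletion or drug is named for either group. The labels give neither the age nor the sex of the animals, for which the study's methods state only a range over all its cold exposures of young adults of both sexes, and they do not say whether the libraries of a group came from separate mice. The p-values below therefore measure only the spread between these libraries. The comparison asks which genes of this tissue differ in expression between cold exposure and thermoneutrality.

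Dendritic cells capture antigen and present it to T cells. Conventional type 1 dendritic cells (cDC1) specialise in cross-presenting antigen of dying cells to CD8+ T cells. Conventional type 2 dendritic cells (cDC2) mainly prime CD4+ T cells, and plasmacytoid dendritic cells (pDC) secrete type I interferon when they sense viral nucleic acid. All of them arise from bone marrow progenitors that depend on the receptor Flt3, and they are rare in tumours and more frequent in spleen and lymph nodes.

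Counts on named genes numbered 16191708 to 20320525 per library, so that a floor of 3 counts corresponds to 0.148 to 0.185 CPM (a count divided by the library's total, times 1000000). One library stood apart, since 21 pancreatic acinar genes took 26.8% of the counts of 30 °C replicate 2, against at most 0.265% in every other library. Levels are therefore given as CPM scaled by the TMM method (scaled CPM), which estimates the library size without the most extreme genes. Keratins and other markers of epithelium were low, with 8 genes summing to between 17.8 and 172 scaled CPM. The 8 pan-leukocyte genes (*Ptprc* and others) summed to between 4573 and 6303 scaled CPM. A list of 7 genes of spleen tissue, most of them of its stroma, summed to 252, 182 and 211 scaled CPM at 30 °C and to 285 and 313 at 4 °C. Its member *Tlx1*, a transcription factor of the splenic mesenchyme, had 173 to 563 counts per library. High leukocyte, splenic and, in 1 library, pancreatic transcripts beside low epithelial markers go against a label of colon tumour alone. How much of each library was tumour tissue was not tested, and every level below is that of the libraries as labelled. These data are from bulk tissue, in which fewer cells of a type and less RNA per cell cannot be told apart.

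With the quasi-likelihood test of edgeR, 0 of the 10 dendritic cell genes had a Benjamini-Hochberg adjusted p under 0.05, as was the case for 0% of the 16133 genes. At an unadjusted p under 0.05 the count was also 0 of 10, against 6.76% of all genes tested (1090 genes). This count of 0 depended on the fit, since *Batf3* had an unadjusted p of 0.044 in edgeR with upper-quartile scaling and of 0.043 without 4 °C replicate 1. Without 30 °C replicate 3 the unadjusted p from edgeR was 0.018 for *Irf8*, 0.033 for *Cd209a* and 0.0498 for *Siglech*. After adjustment none of these passed, with adjusted p between 0.41 and 0.71. The Wald test of DESeq2 called 0 of the 10 and 118 genes in all, and gave *Clec10a* no adjusted p. Higher estimates at 4 °C were found for 9 of the 10 genes, where 50.7% of all genes had one, and the median log2 fold change was 0.37 over the 10 genes and 0.0064 over all genes tested. The same direction was found in 8 of 8 pan-leukocyte, 8 of 8 B cell and 6 of 6 T cell markers (medians 0.23, 0.71 and 0.94). It was found in 5 of 9 macrophage, 3 of 5 natural killer cell, 1 of 4 monocyte and 0 of 7 neutrophil markers. In *Batf3* and *Clec10a*, 2 of the 10, both libraries at 4 °C lay above all 3 at 30 °C. Such separation in this direction was found for 12.2% of all genes, and in either direction for 23.3%. In the other 8 genes, 30 °C replicate 3 lay within or above the range of the libraries at 4 °C. The lowest library was 30 °C replicate 1 in 8 of the 10 genes and 30 °C replicate 2 in *Batf3* and *Itgax*.

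**Figure D1:**
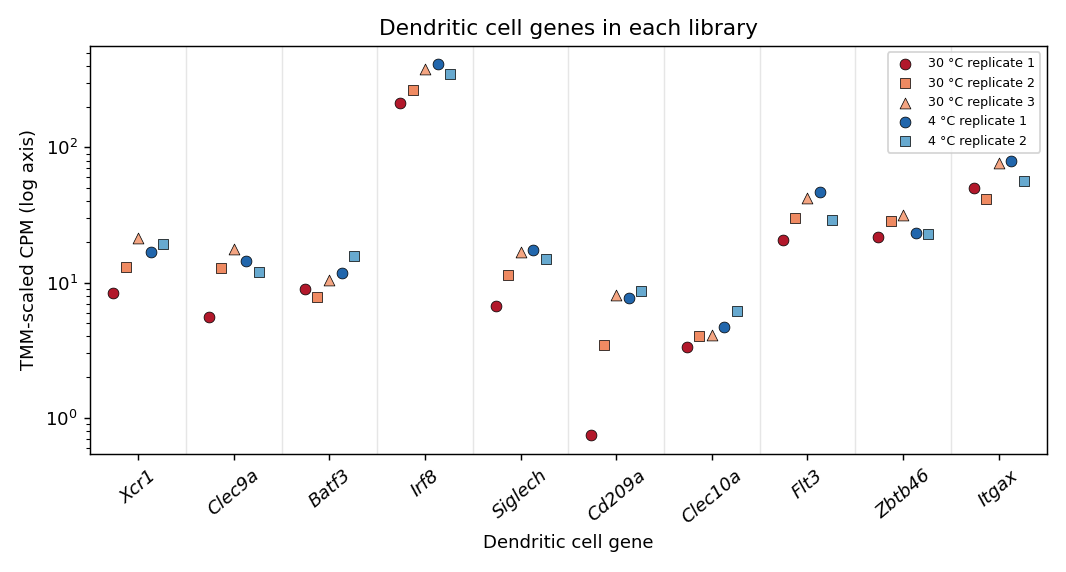
Scaled CPM (log axis) of the 10 dendritic cell genes in each of the 5 libraries labelled as tumour, with 3 libraries at 30 °C in red and 2 at 4 °C in blue. Blue points lie above all red points only in *Batf3* and *Clec10a*, and *Cd209a* spans from 0.745 to 8.63 scaled CPM.

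Genes of cDC1 were examined first. *Xcr1* (chromosome 9 of GRCm38, 123852315 to 123862029, minus strand) encodes the chemokine receptor of cDC1 for Xcl1, a chemokine from natural killer cells and activated CD8+ T cells. It stood at 8.36, 13.1 and 21.4 scaled CPM in the 3 libraries at 30 °C and at 16.9 and 19.3 at 4 °C. The libraries at 4 °C lie within the range of those at 30 °C, and the means were 14.3 ± 6.57 (SD, n = 3) at 30 °C and 18.1 ± 1.68 (SD over the 2 libraries) at 4 °C. Its log2 fold change was 0.34 with a standard error (SE) of 0.39 (edgeR, adjusted p = 0.89).

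*Clec9a* (chromosome 6, 129408862 to 129424763, plus strand) encodes a lectin receptor with which cDC1 recognise actin filaments exposed on dead cells. Its level was 5.53, 12.8 and 17.6 scaled CPM at 30 °C and 14.4 and 12.0 at 4 °C. The groups overlap, and the difference of 0.14 on the log2 scale is smaller than its SE of 0.46 (edgeR, adjusted p = 0.96). The sign turned negative without 30 °C replicate 1, with a log2 fold change of −0.20, and with scaling to the pan-leukocyte genes, with −0.081. Of the 50-base words of its transcript, 4.19% also occur in transcripts of *Clec1b*, a neighbouring lectin gene of platelets that stood between 16.9 and 33.5 scaled CPM.

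*Batf3* (chromosome 1, 191097847 to 191108945, plus strand) encodes a transcription factor needed for the development of cDC1, and activated T cells also express it. It was measured at 9.05, 7.88 and 10.5 scaled CPM at 30 °C and at 11.7 and 15.8 at 4 °C. Both libraries at 4 °C were above all 3 at 30 °C, with means of 9.14 ± 1.30 (SD, n = 3) and 13.8 ± 2.88 (SD, n = 2). The log2 fold change of 0.59 (SE 0.25) had the smallest unadjusted p of the 10 genes, 0.054, and an adjusted p of 0.74 from edgeR. With each library left out in turn it stayed between 0.35 and 0.79. T cell markers were also higher at 4 °C, with 6 genes summing to between 165 and 261 scaled CPM at 30 °C and to 372 and 373 at 4 °C, and their part in the *Batf3* difference was not tested.

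*Irf8* (chromosome 8, 120736358 to 120756694, plus strand) encodes a transcription factor required for cDC1 that is also made by pDC, monocyte progenitors and B cells. It was the most abundant of the 10 genes, with 213, 268 and 379 scaled CPM at 30 °C and 411 and 351 at 4 °C. The library at 4 °C with the lower value lay below 30 °C replicate 3, and the log2 fold change was 0.41 (SE 0.27, adjusted p = 0.83 from edgeR). The summed level of 8 B cell markers had a similar order among the libraries, with 1227, 1829 and 3276 scaled CPM at 30 °C and 3688 and 3076 at 4 °C. The part of B cells in the *Irf8* counts was not tested.

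Beyond these genes, 13 further genes of cDC1 were read from a list, of which all passed the filter. Higher estimates at 4 °C were found in 9 and lower ones in 4, with a median log2 fold change of 0.090, and 0 were called by edgeR or reached an unadjusted p under 0.05. *Snx22* had the smallest p of the list (log2 fold change −0.48, SE 0.24, adjusted p = 0.77 from edgeR), followed by *Nfil3* with −0.67 and *Cadm1* with 0.28. *Nfil3* rested on 30 °C replicate 1, at 22.1 scaled CPM against 7.34 to 10.8 in the other libraries, and its log2 fold change was −0.098 without it. *Cadm1* is an adhesion molecule that marks cDC1 across species and *Nfil3* a transcription factor of their progenitors. In 2 of the 13 genes both libraries at 4 °C lay below all 3 at 30 °C and in 0 above, against 11% and 12.2% of all genes. Neither of these 2 was separated in CPM without TMM factors, where *Snx22* was separated with lower values at 4 °C. *Xcr1* and *Clec9a*, among the most restricted markers of cDC1, overlapped between the temperatures.

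*Siglech* (chromosome 7, 55768178 to 55778925, plus strand) encodes a sialic acid-binding lectin of pDC that is also found on some macrophages. It stood at 6.71, 11.4 and 16.9 scaled CPM at 30 °C and at 17.3 and 14.9 at 4 °C. The lower library at 4 °C lay below 30 °C replicate 3, and the log2 fold change was 0.46 (SE 0.38, adjusted p = 0.86 from edgeR). Without 30 °C replicate 1 it was 0.18, and without 30 °C replicate 3 it was 0.84.

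Of 16 other genes of pDC, all tested, 9 had a higher and 7 a lower estimate at 4 °C, and the median was 0.052. In 1 of the 16 both libraries at 4 °C lay above all 3 at 30 °C and in 1 below, against 12.2% and 11% of all genes. The gene with the smallest p was *Irf7*, the transcription factor that drives production of type I interferon and is itself induced by interferon in many cell types. It stood at 190, 241 and 184 scaled CPM at 30 °C and at 100 and 94.5 at 4 °C, so that all 3 libraries at 30 °C lay above both at 4 °C. Its log2 fold change of −1.07 (SE 0.19) had an adjusted p of 0.69 with edgeR and of 0.0012 with DESeq2. *Ly6d*, a surface protein of pDC and B cell progenitors, was higher at 4 °C by 0.90 (SE 0.35, adjusted p = 0.71 from edgeR), without overlap. *Spib*, a transcription factor of pDC and B cells, had an estimate of 0.68 (SE 0.43, adjusted p = 0.82 from edgeR). In *Spib* the temperatures overlapped, with 30 °C replicate 3 at 339 scaled CPM and the libraries at 4 °C at 372 and 296. The list summed to 854, 991 and 1326 scaled CPM at 30 °C and to 1289 and 1238 at 4 °C when *Klk1* was left out. Within this sum *Ly6d* held 142, 196 and 331 scaled CPM at 30 °C and 389 and 445 at 4 °C. *Spib* held 123, 165 and 339 at 30 °C and 372 and 296 at 4 °C. The part of B cells and their progenitors in this sum was not tested. *Klk1*, a kallikrein that is also made by pancreatic tissue, reached 3160 scaled CPM in 30 °C replicate 2, the library rich in acinar transcripts, against 2.45 to 34.6 in the others.

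Among genes of cDC2, *Cd209a* (chromosome 8, 3743397 to 3748984, minus strand) encodes a lectin of the DC-SIGN family, found on cDC2 and on dendritic cells derived from monocytes. It had the widest range of the 10 genes, with 14, 42 and 186 counts at 30 °C and 154 and 144 at 4 °C. In scaled CPM these are 0.745, 3.45 and 8.12 at 30 °C and 7.66 and 8.63 at 4 °C. The 14 counts of 30 °C replicate 1 correspond to 0.801 CPM without TMM scaling, with a 95% Wilson interval of 0.477 to 1.34 that covers counting error only. Within the 30 °C group the highest library was 10.9-fold above the lowest, whereas the mean at 4 °C was 1.98-fold the mean at 30 °C (8.14 ± 0.685, SD, n = 2, against 4.11 ± 3.73, SD, n = 3). Accordingly, the log2 fold change of 0.98 came with a SE of 0.82 (edgeR, adjusted p = 0.86). It was 0.48 without 30 °C replicate 1 and 1.99 without 30 °C replicate 3.

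The other members of the *Cd209* cluster on chromosome 8 share no 50-base word with the transcript of *Cd209a*, so that their counts were read as separate. *Cd209b*, a lectin of marginal zone macrophages of the spleen, was the most abundant of them with 14.5, 18.6 and 22.6 scaled CPM at 30 °C and 24.9 and 27.4 at 4 °C (log2 fold change 0.49, SE 0.24, adjusted p = 0.76 from edgeR). *Cd209d* had 1.22 (SE 0.50) and *Cd209e* 1.63 (SE 0.66), each with an adjusted p of 0.73 from edgeR. Their counts per library ran from 19 to 96 and from 2 to 24. In these 3 genes both libraries at 4 °C lay above all 3 at 30 °C, as in 12.2% of all genes tested. *Cd209c*, *Cd209f* and *Cd209g* had at most 4 counts in any library and were not tested.

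*Clec10a* (chromosome 11, 70156197 to 70170834, plus strand) encodes a galactose-binding lectin of cDC2 and macrophages. It was low, at 3.35, 4.02 and 4.10 scaled CPM at 30 °C and at 4.67 and 6.17 at 4 °C, from 49 to 103 counts per library. Both libraries at 4 °C were above all 3 at 30 °C (means 3.83 ± 0.413, SD, n = 3, and 5.42 ± 1.06, SD, n = 2), and the log2 fold change was 0.50 (SE 0.30, adjusted p = 0.81 from edgeR). *Clec10a* lies beside *Mgl2* (70130329 to 70137550), a near copy with similar sugar binding. Of the 50-base words of the *Clec10a* transcript, 10.6% occur in transcripts of *Mgl2*, and how reads common to both genes were counted is not given in the sources used here. The longest coding stretch that is identical in both genes has 183 bases and is shown because a read within it cannot be assigned to either gene by its sequence. It lies on the plus strand over 3 exons, in *Clec10a* at chr11:70169822-70170189 and in *Mgl2* at chr11:70136337-70136699, and codes for part of the extracellular region of the lectin.

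Clec10a and Mgl2: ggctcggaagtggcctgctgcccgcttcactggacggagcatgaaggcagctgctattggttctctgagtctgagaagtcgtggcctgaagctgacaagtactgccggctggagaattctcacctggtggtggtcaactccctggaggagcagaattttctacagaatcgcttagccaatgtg

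*Mgl2* itself was higher in 30 °C replicates 1 and 2, with 4.90, 4.44 and 1.44 scaled CPM at 30 °C and 1.39 and 3.18 at 4 °C (log2 fold change −0.65, SE 0.64, adjusted p = 0.87 from edgeR). Summed over both copies, the level was 8.25, 8.46 and 5.55 scaled CPM at 30 °C and 6.07 and 9.35 at 4 °C. The temperatures overlapped in this sum, unlike in *Clec10a* alone.

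Of 11 further genes of cDC2, *Mgl2* among them, 5 had a higher and 6 a lower estimate at 4 °C, with a median of −0.14. In 2 of the 11 both libraries at 4 °C lay above all 3 at 30 °C and in 0 below, against 12.2% and 11% of all genes. Of these 2, only *Clec4a4* was also separated in CPM without TMM factors. An unadjusted p under 0.05 from edgeR was found in 1, higher at 4 °C, against 2.58% of all genes in that direction. *Clec4a4*, the lectin DCIR2 of splenic cDC2, was at 2.55, 3.45 and 4.28 scaled CPM at 30 °C and at 6.96 and 5.81 at 4 °C, with a log2 fold change of 0.90 (SE 0.33, adjusted p = 0.71 from edgeR). *Dtx1*, a Notch target that is also expressed in marginal zone B cells, had 0.72 and *Clec12a*, a myeloid lectin, −0.30, which was −0.019 without 4 °C replicate 1. *Irf4*, the transcription factor of cDC2, ranged from 41.4 to 84.0 scaled CPM at 30 °C and stood at 98.8 and 61.4 at 4 °C.

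**Figure D2:**
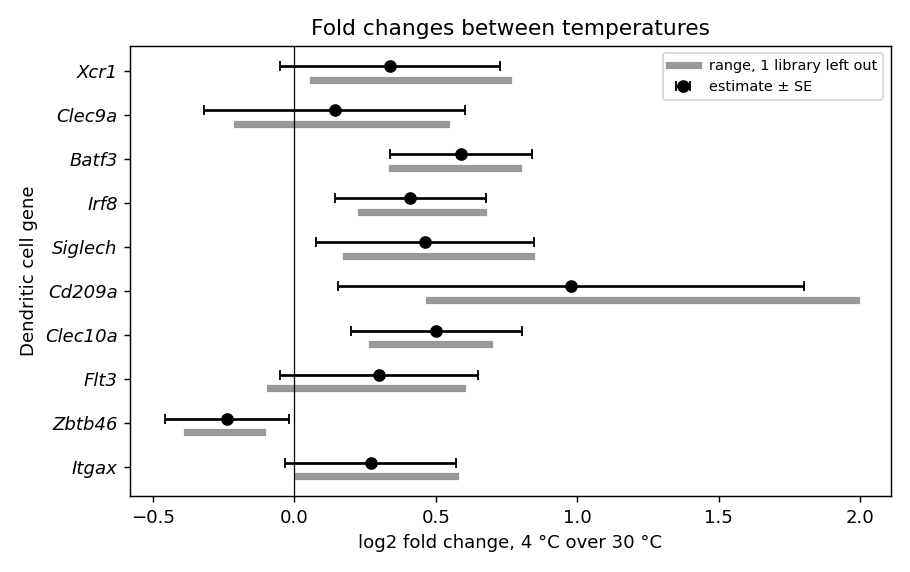
Log2 fold change of 4 °C over 30 °C for each dendritic cell gene (black point, bar for ± 1 SE from edgeR) and the range of the estimate when each of the 5 libraries was left out in turn (grey). The grey range crosses 0 for *Clec9a* and *Flt3*, and that of *Cd209a* is the widest, from 0.48 to 1.99.

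Genes shared by several kinds of dendritic cell were *Flt3*, *Zbtb46* and *Itgax*. *Flt3* (chromosome 5, 147330741 to 147400489, minus strand) encodes the receptor tyrosine kinase on dendritic cells and blood progenitors that binds the growth factor Flt3l. It had 20.8, 30.0 and 42.4 scaled CPM at 30 °C and 47.1 and 29.2 at 4 °C. The libraries at 4 °C were themselves 1.61-fold apart, and the log2 fold change was 0.30 (SE 0.35, adjusted p = 0.89 from edgeR). Without 4 °C replicate 1 it was −0.086, the other change of sign among the 10 genes.

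*Zbtb46* (chromosome 2, 181387762 to 181459426, minus strand) encodes a transcription factor that separates conventional dendritic cells from macrophages and pDC, and endothelial cells and erythroid progenitors express it too. It was the exception in direction, with 21.6, 28.4 and 31.6 scaled CPM at 30 °C and 23.4 and 22.8 at 4 °C. Both libraries at 4 °C lay between 30 °C replicates 1 and 2, and the log2 fold change was −0.24 (SE 0.22, adjusted p = 0.87 from edgeR).

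*Itgax* (chromosome 7, 128129547 to 128150657, plus strand) encodes the integrin CD11c, present on dendritic cells and also on macrophages and natural killer cells. Its level was 49.9, 41.9 and 77.2 scaled CPM at 30 °C and 79.1 and 56.9 at 4 °C, and the log2 fold change was 0.27 (SE 0.30, adjusted p = 0.89 from edgeR). Without 4 °C replicate 1 the estimate was 0.013. *Itgax* shares 9.61% of its 50-base words with *Itgad*, an integrin of red pulp macrophages, which stood at 44.7, 88.5 and 113 scaled CPM at 30 °C and at 96.8 and 93.0 at 4 °C.

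Counts divided by merged exon length, which joins the exons of all transcripts of a gene, allowed the genes to be compared with each other. This length was 3383 bases for *Siglech* and 7055 for *Irf8*, against 1062 and 2847 in the transcript used for the 50-base words. For *Xcr1* both were 4453. Levels by another length were not computed, so the order below holds for this length only. *Irf8* led with 40.6 ± 12.1 scaled CPM per kilobase (mean ± SD) at 30 °C and 54.0 ± 5.97 at 4 °C. *Itgax* came next with 11.7 ± 3.86 and 14.2 ± 3.27, and then *Batf3* with 5.72 ± 0.814 and 8.63 ± 1.81. *Flt3*, *Clec9a*, *Siglech*, *Xcr1*, *Zbtb46* and *Cd209a* had means between 2.59 and 5.02 scaled CPM per kilobase at 30 °C, and each differed from its neighbour in this order by less than the larger of their SDs. The lowest level was that of *Clec10a*, with 1.32 ± 0.142 and 1.87 ± 0.365. *Cd209a* was at 5.14 ± 0.432 at 4 °C, and the gap to *Siglech* (4.76 ± 0.499) was smaller than the SD of either.

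The spread within the 30 °C group was compared with that of other genes. The SD of log2 scaled CPM over the 3 libraries was 1.65 for *Cd209a*, 0.85 for *Clec9a*, 0.67 for *Xcr1* and 0.66 for *Siglech*, where the median over all genes tested was 0.27. It was 0.20 for *Batf3* and 0.16 for *Clec10a*. The genes whose temperatures did not overlap were those with the smallest spread at 30 °C among the 10. A narrow range at 30 °C makes separation easier by construction, so these 2 traits are not independent.

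Markers of other cell types also varied between the libraries. The 7 neutrophil markers summed to 10618 and 7170 scaled CPM in 30 °C replicates 1 and 2, against 2411 in 30 °C replicate 3 and 2089 and 3412 at 4 °C. The 4 monocyte markers summed to 470 and 523 in 30 °C replicates 1 and 2, to 311 in replicate 3, and to 249 and 285 at 4 °C. Macrophage markers did not have this order, with 9 genes at 2055, 1462 and 1638 scaled CPM at 30 °C and at 1585 and 2402 at 4 °C. Natural killer cell markers, 5 genes, summed to 46.8, 68.6 and 118 at 30 °C and to 75.5 and 80.6 at 4 °C. The part of these cell types in the levels of the dendritic cell genes was not tested. Relative to the pan-leukocyte genes, 7 of the 10 dendritic cell genes were still lowest in 30 °C replicate 1, while 2 were lowest in 30 °C replicate 2 and *Zbtb46* in 4 °C replicate 1. In CPM without TMM factors, 6 were lowest in 30 °C replicate 2 and 4 in 30 °C replicate 1, so that the order of these 2 libraries depends on the scaling.

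**Figure D3:**
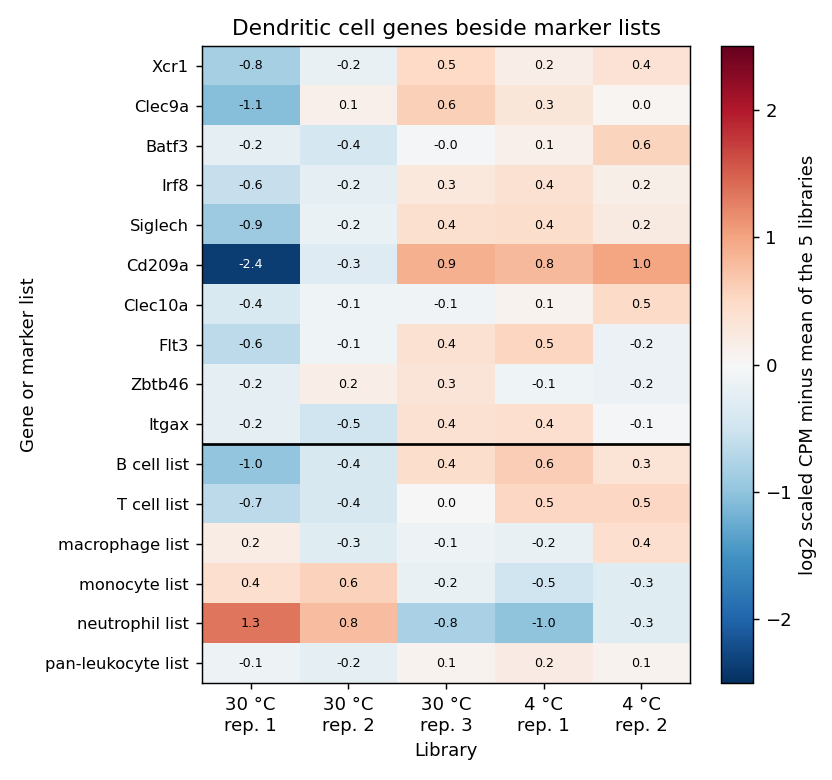
Log2 scaled CPM of each dendritic cell gene (above the line) and of the summed marker lists of other cell types (below the line), each minus its mean over the 5 libraries. Most dendritic cell genes and the B cell list are lowest in 30 °C replicate 1, where the neutrophil list is highest with 10618 scaled CPM.

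The likeness of 2 genes was measured as the root mean square distance between their centred log2 levels over the 5 libraries. With so few libraries many genes lie close to any gene, so this is a description. *Xcr1* and *Siglech*, markers of different kinds of dendritic cell, were the closest pair of the 10 with a distance of 0.15, and *Siglech* was the 31st nearest of 16132 genes to *Xcr1*. *Batf3* and *Clec10a* followed at 0.16, then *Flt3* and *Irf8* at 0.17. *Xcr1* and *Clec9a*, both of cDC1, were 0.24 apart. *Cd209a* was at least 0.79 from every other of the 10 genes. The nearest genes overall were *Slc37a2*, *Lyz1* and *A530040E14Rik* for *Xcr1* (0.063 to 0.082), *Myl4*, *Ralgps2* and *Psd2* for *Siglech* (0.042 to 0.064), *Mmrn2*, *Dpp4* and *Plk-ps1* for *Flt3* (0.023 to 0.036) and *Dyrk4*, *Crisp3* and *Ptchd1* for *Cd209a* (0.24 to 0.32).

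Because *Xcr1* and *Siglech* were the closest pair by this distance and *Cd209a* the most variable gene, their promoters are shown. Each runs from 250 bases before to 50 bases from the start of transcription (RefSeq, build GRCm38.p6). RefSeq promoters were matched for 9 of the 10 genes, with 10 windows, and *Clec10a* had no match. On both strands, 5 motifs were searched: the interferon-stimulated response element GAAANNGAAA, the ETS-IRF composite GGAANNGAAA, AP-1 as TGANTCA, the PU.1 core GAGGAAG and an E-box CAGNTG. The PU.1 core and the ETS-IRF composite share the letters GGAA, and the matches overlap in none of the windows printed here. Matches are in capitals in the following sequences, at chr9:123861980-123862279 on the minus strand for *Xcr1*, chr7:55767934-55768233 on the plus strand for *Siglech* and chr8:3748935-3749234 on the minus strand for *Cd209a*.

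Xcr1: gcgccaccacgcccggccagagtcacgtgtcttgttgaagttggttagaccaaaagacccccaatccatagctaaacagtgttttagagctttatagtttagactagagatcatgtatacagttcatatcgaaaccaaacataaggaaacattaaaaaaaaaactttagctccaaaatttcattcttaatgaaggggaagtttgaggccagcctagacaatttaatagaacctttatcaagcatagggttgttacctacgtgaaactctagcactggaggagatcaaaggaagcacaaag

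Siglech: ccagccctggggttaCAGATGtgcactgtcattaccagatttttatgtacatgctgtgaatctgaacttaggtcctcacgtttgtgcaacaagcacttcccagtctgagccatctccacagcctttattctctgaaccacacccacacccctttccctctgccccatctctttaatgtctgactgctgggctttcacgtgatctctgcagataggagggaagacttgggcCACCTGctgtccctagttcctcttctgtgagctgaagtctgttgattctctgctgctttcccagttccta

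Cd209a: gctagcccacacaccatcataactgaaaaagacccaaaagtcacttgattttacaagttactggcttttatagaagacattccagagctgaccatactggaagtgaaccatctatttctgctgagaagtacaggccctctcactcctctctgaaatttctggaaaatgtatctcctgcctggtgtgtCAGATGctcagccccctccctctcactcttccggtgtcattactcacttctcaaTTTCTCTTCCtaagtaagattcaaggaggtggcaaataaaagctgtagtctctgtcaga

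The window of *Xcr1* held none of the 5 motifs and that of *Siglech* held the E-box at 2 places. The window of *Cd209a* held the E-box once and the ETS-IRF composite once, the latter at the start of transcription. Among all 32851 promoter windows, 51.4% held this E-box and 2.72% the ETS-IRF composite. The response element was in 0 of the 10 windows and in 3.44% of all. AP-1 was found in the windows of *Itgax* and *Zbtb46*, against 7.81% of all, and the PU.1 core in that of *Batf3*, against 13.6%. A match of letters is a description and not evidence of binding.

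Growth factors and chemokines that act on dendritic cells were read from a list of 5 genes. *Csf2*, which encodes GM-CSF, had at most 3 counts in any library and was not tested, and the other 4 all had higher estimates at 4 °C. *Flt3l*, the ligand of Flt3, was at 7.18, 7.97 and 9.61 scaled CPM at 30 °C and at 10.4 and 16.8 at 4 °C, a difference of 0.72 on the log2 scale (SE 0.29, adjusted p = 0.73 from edgeR). *Xcl1*, the ligand of Xcr1, was at 3.35, 4.27 and 4.10 at 30 °C and at 4.58 and 8.81 at 4 °C, with 0.77 (SE 0.37, adjusted p = 0.76). *Csf1*, the growth factor of macrophages, was at 58.4, 36.3 and 51.0 at 30 °C and at 94.6 and 77.6 at 4 °C, with 0.82 (SE 0.24, adjusted p = 0.69). The libraries of both temperatures did not overlap in these 3 genes, and 2 of the genes, *Flt3l* and *Csf1*, had an unadjusted p under 0.05, where 12.2% of all genes were separated in this direction and 2.58% had such a p with a higher estimate. Without 4 °C replicate 2 the log2 fold change was 0.32 for *Flt3l* and 0.21 for *Xcl1*. In the receptor genes *Flt3* and *Xcr1* they did overlap. *Ccl19*, a chemokine of lymphoid stroma that attracts Ccr7-bearing dendritic cells, rested on 4 °C replicate 2 with 65.1 scaled CPM, against 0.393 to 8.38 in the other libraries. Its log2 fold change of 2.94 (SE 1.98, adjusted p = 0.84 from edgeR) was the highest of all genes tested.

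Maturation genes, which dendritic cells switch on when they migrate to lymph nodes, numbered 15, of which 14 were tested. Estimates were higher at 4 °C in 11 and lower in 3, with a median of 0.52, and 3 had an unadjusted p under 0.05, all higher, against 2.58% of all genes in that direction, while 0 were called. In 4 of the 14 both libraries at 4 °C lay above all 3 at 30 °C and in 0 below, against 12.2% and 11% of all genes. *Ccl22*, a chemokine for regulatory T cells, was at 5.43, 6.49 and 8.38 scaled CPM at 30 °C and at 11.2 and 14.4 at 4 °C (log2 fold change 0.91, SE 0.28, adjusted p = 0.69 from edgeR). *Relb*, a subunit of NF-κB, had 0.64 (SE 0.21, adjusted p = 0.70), and *Ccr7*, the receptor that guides dendritic cells and naive lymphocytes to lymphoid tissue, had 0.77 (SE 0.30, adjusted p = 0.72). *Ccr7* and *Relb* are also expressed by B and T cells, whose markers were higher in both libraries at 4 °C than in 30 °C replicates 1 and 2. Their part in these values was not tested.

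In a list of 11 genes for the development of dendritic cells, 5 had a higher and 6 a lower estimate at 4 °C, with a median of −0.19. Both libraries at 4 °C lay below all 3 at 30 °C in 3 of the 11 and above in 1, against 11% and 12.2% of all genes. Of these genes only *Kit* was also separated in CPM without TMM factors, where *Gfi1* was separated too, with lower values at 4 °C. An unadjusted p under 0.05 from edgeR was found in 1, lower at 4 °C, against 6.76% of all genes in either direction. *Kit*, the receptor of early progenitors and mast cells, was at 44.6, 58.1 and 50.1 scaled CPM at 30 °C and at 38.3 and 26.5 at 4 °C (log2 fold change −0.65, SE 0.23, adjusted p = 0.71 from edgeR). *Csf2rb*, a subunit of the GM-CSF receptor, had −0.63 and *Gfi1*, a transcription factor of granulocyte progenitors, −0.77. *Gfi1* was at 14.5 and 15.0 scaled CPM in 30 °C replicates 1 and 2, the libraries with the highest neutrophil markers, and between 7.01 and 7.25 in the other 3.

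**Figure D4:**
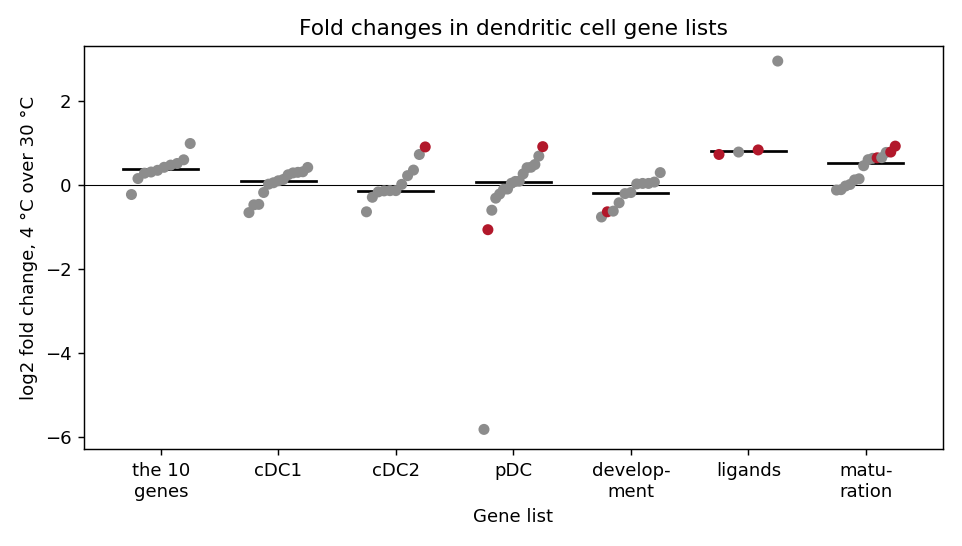
Log2 fold change of 4 °C over 30 °C for every tested gene of 7 lists, with the median of each list as a black line and genes with an unadjusted p under 0.05 in red. No gene was called after adjustment with edgeR, and the lowest point, in the pDC list, is *Klk1*, while the highest, among the ligands, is *Ccl19*.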

How the data were processed

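RNA-seq of tissue labelled as tumour, 3 libraries at 30 °C and 2 at 4 °C, was analysed from the deposited table of read counts per gene symbol. According to the study's methods, TruSeq libraries were sequenced and the authors assigned aligned reads to Gencode vM19 genes by featureCounts. The submitters' processing notes name GRCm38, fastp, HISAT and RSEM without their roles, and the strand setting is not given in the sources used here. The deposited counts are whole numbers with no normalisation. Entries without a name (0.0101% to 0.0170% of the counts) were left out, and of 97 symbols with several entries the most abundant kept the symbol.

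Counts were filtered with filterByExpr, scaled by TMM and compared with the robust quasi-likelihood test of edgeR 4.0.16 in R 4.3.3, without covariates, with Benjamini-Hochberg adjustment over all 16133 genes. The study used DESeq2, here (1.42.0) an alternative. Log2 levels used a prior count of 2. The fit was tested on simulated data. Positions and exon lengths were taken from GENCODE M21 on GRCm38. The genes and lists were chosen with earlier results of these data known. From each list of dendritic cell genes the 3 tested genes with the smallest p are named, beside the near copies of *Cd209a* and *Clec10a* and the genes nearest in profile. *Irf4*, *Klk1*, *Ccl19*, *Tlx1*, *Itgad* and *Clec1b* were named after their values were seen. Wilson half-widths on the counts of the 10 genes ran from 2.10% to 54.1% of the value. PCR reads are not independent molecules, so these cover counting error only. Scaling, filters, robust estimation, a replicate block and leaving out each library were tried as alternatives.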

Additional observations from a re-analysis of the deposited data

How the results depend on the processing

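The 10 dendritic cell genes had 0 calls under every alternative run. Over all genes, 0 calls became 1090 at an unadjusted p under 0.05, which is the same edgeR fit read without the adjustment. DESeq2 called 118 genes and the replicate block 44, and the cause of these differences was not tested. The count was 0 with RLE, upper-quartile, pan-leukocyte and acinar-free scaling, without a filter, with at least 10 counts in every library (which leaves all 10 genes), without robust estimation and with each library left out in turn. Without a library at 4 °C, the remaining library of that group is assumed to vary like the others. The replicate numbers are shared by the labels only, and the deviations of libraries with the same number correlated at −0.25 and 0.26. Replicate 3 exists only at 30 °C, so the replicate block takes that library out of the temperature estimate. Of 140 log2 fold changes of the 10 genes under alternatives, 137 kept their sign and 3 did not, which were *Clec9a* without 30 °C replicate 1 (−0.20) and with pan-leukocyte scaling (−0.081), and *Flt3* without 4 °C replicate 1 (−0.086). Pan-leukocyte scaling moved the median of all genes to −0.24, and the other scalings left it between −0.0082 and 0.057.

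Genes among the 10 whose temperatures do not overlap numbered 2 under TMM, RLE, upper-quartile, pan-leukocyte and acinar-free scaling and in CPM without TMM factors, the last added after seeing the data. They were *Batf3* and *Clec10a* under TMM and in CPM without TMM factors. Relative to the pan-leukocyte genes they were *Batf3* and *Zbtb46*, the latter with lower values at 4 °C, while *Clec10a* overlapped. On that scale *Batf3* in 4 °C replicate 1 lay only slightly above 30 °C replicate 1. With each library left out in turn the genes without overlap numbered 2 to 7. There were 3 without 30 °C replicate 1, among them *Zbtb46* with lower values at 4 °C, where 39% of all genes did not overlap. There were 2 without 30 °C replicate 2, where 29% did not, and 3 without 4 °C replicate 1, where 58.5% did not. There were 7 without 30 °C replicate 3, where 38.8% of all genes did not overlap, and 6 without 4 °C replicate 2, where 49% did not. Fewer libraries make separation more frequent by construction. Without 30 °C replicate 1, *Xcr1* went from 0.34 to 0.065, *Siglech* from 0.46 to 0.18 and *Cd209a* from 0.98 to 0.48, and with the replicate block they were 0.78, 0.88 and 2.29. That block leaves 30 °C replicate 3 out of the temperature estimate, and dropping this library outright gave 0.76, 0.84 and 1.99. With that block, unadjusted p from edgeR were 0.048 for *Irf8* and 0.0035 for *Cd209a* (adjusted 0.81 and 0.31). Over the libraries left out, *Clec9a* ran from −0.20 to 0.54 and *Flt3* from −0.086 to 0.59. Depth limits *Cd209a* and *Clec10a* most, with 14 and 49 counts in their lowest libraries.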
